A study of Mus musculus with 8 samples.

Results

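The nuclear genes of mitochondrial complex I were examined as a set in epididymal white adipose tissue, a visceral fat depot of male mice. The set holds 37 of the 16505 genes measured: every gene whose symbol starts with Ndufa, Ndufb, Ndufc, Ndufs or Ndufv, Ndufab1 among them, whose log2 CPM (reads scaled to the library total, on a log2 scale) averaged at least 0 over the libraries. The assembly factors named Ndufaf and the paralog Ndufa4l2 were left out by that rule. All 37 genes that bear such a name passed the level limit, the lowest being Ndufb2 at a mean of 4.30, so the limit removed none and chose no member. The animals were C57BL/6 mice fed a high fat diet for 12 weeks, and 4 miR-181 double knockout animals (DKO) were set against 4 wild-type animals (WT). All 8 animals shared the strain, the diet and its length; age and litter are not in the labels, nor is the name of the deleted loci or the means of deletion. The series concerns the microbiota, adipose inflammation and obesity, and the comparison asks how the genes of this complex differ in fat of DKO mice on that diet.

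Complex I, or NADH:ubiquinone oxidoreductase, takes electrons from NADH, passes them along a chain of iron-sulfur clusters to ubiquinone and pumps protons across the inner mitochondrial membrane. It is L-shaped. The arm in the matrix consists of the N module, which oxidizes NADH, and the Q module, which reduces ubiquinone, and the arm in the membrane consists of a proximal and a distal part that hold the proton pumps. Core subunits, which carry out the catalysis, come partly from nuclear and partly from mitochondrial genes, and many accessory subunits surround them. In fat cells the complex reoxidizes the NADH made by fatty acid, amino acid and glucose oxidation.

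MicroRNAs of the miR-181 family pair with messenger RNAs through a seed, bases 2 to 8 from the 5′ end, and lower the level or the translation of their targets. The family is shown here because the groups differ by a miR-181 double knockout. Which of the loci below were deleted is not in the labels, so not every form need be absent in DKO. The mature 5p sequences in RefSeq (mouse build GRCm38.p6) are printed 5′ to 3′ with the seed in capitals, and all 4 forms share it. The a form is encoded at chr1:137966468-137966490 and chr2:38852741-38852763 (both on the plus strand), the b form at chr1:137966650-137966673 and chr2:38853845-38853868 (plus), the c form at chr8:84178924-84178945 (minus) and the d form at chr8:84178759-84178781 (minus).
miR-181a-5p: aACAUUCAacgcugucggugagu
miR-181b-5p: aACAUUCAuugcugucgguggguu
miR-181c-5p: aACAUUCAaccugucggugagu
miR-181d-5p: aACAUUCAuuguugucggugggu
The complement of the seed, TGAATGT, was looked for in every gene's longest 3′ UTR (GENCODE release M21). None of the 37 members held it (0 of 37), against 2359 of 12843 tested genes with such a UTR (18.4%). The members' 3′ UTRs were short, with a median of 197 bases against 1173 over the tested genes, and the absence of these letters says nothing about other kinds of site.

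Upstream sequence was available for 33 of the 37 members as RefSeq windows of 250 bases before to 50 bases after the transcript start. The windows printed are those of the called members with the largest changes between the groups, Ndufs3 and Ndufv1, and with the smallest, Ndufa8 and Ndufb3. Each is written 5′ to 3′ on the gene's own strand (GRCm38.p6), and capitals mark exact matches, on either strand, to the motifs searched. The Ndufs3 window lies at chr2:90904672-90904971 and that of Ndufv1 at chr19:4012706-4013005, both on the minus strand. The Ndufa8 window lies at chr2:36049289-36049588 (minus) and that of Ndufb3 at chr1:58586147-58586446 (plus).
Ndufs3: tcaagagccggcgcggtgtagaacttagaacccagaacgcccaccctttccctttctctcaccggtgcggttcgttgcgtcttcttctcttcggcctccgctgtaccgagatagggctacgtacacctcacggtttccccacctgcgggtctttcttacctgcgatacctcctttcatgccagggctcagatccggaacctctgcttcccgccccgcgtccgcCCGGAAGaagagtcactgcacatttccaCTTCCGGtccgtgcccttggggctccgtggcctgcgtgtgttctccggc
Ndufv1: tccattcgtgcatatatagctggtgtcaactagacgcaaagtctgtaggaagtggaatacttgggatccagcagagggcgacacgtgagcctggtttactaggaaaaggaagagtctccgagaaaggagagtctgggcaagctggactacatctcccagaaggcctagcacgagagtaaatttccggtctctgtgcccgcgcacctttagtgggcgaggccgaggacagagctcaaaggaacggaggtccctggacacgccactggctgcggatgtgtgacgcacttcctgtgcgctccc
Ndufa8: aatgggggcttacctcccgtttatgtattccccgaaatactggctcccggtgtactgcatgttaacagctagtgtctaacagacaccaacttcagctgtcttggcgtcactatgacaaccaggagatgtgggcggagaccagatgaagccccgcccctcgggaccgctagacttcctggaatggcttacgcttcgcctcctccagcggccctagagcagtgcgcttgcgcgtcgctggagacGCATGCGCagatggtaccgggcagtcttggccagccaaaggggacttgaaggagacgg
Ndufb3: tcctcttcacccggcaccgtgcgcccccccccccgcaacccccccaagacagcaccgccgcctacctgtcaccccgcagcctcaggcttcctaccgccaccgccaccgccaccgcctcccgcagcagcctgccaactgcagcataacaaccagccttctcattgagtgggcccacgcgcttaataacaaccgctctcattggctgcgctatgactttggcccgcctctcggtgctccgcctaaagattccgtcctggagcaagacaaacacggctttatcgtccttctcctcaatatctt
These windows differ in what they hold. Ndufs3 had 2 matches to CCGGAAG, at positions -27 and 2 from the start, the second of them on the opposite strand, and Ndufa8 had 1 match to GCGCATGC at -8, also on the opposite strand, while the windows of Ndufv1 and Ndufb3 held none of the motifs.

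The motifs searched were GCGCATGC (letters of the NRF1 site), CCGGAAG (the core bound by ETS factors such as GABPA), AAGGTCA (bound by estrogen-related receptors) and AAGATGGC (the YY1 site), each also as its reverse complement. None of these words contains another. GCGCATGC was in the windows of 3 of 33 members (9.09%) and in 5.69% of the tested genes with a window. CCGGAAG was in 4 members (12.1%), against 18.9% of tested genes, and AAGGTCA in 3 members (9.09%), against 3.99%. AAGATGGC was in 7 members (21.2%), against 4.98% of tested genes, and it was the motif that the largest number of members held. A match describes letters only and shows no binding.

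All 7 AAGATGGC matches lay on the gene's strand, 23 to 39 bases after the transcript start, and the ATG inside each was an annotated start codon (GENCODE M21). In the 50 transcribed bases the word occurred on that strand in 2.30% of tested genes (239 of 10396). The stretches around these start codons are shown because they are what these members have in common, with the word in capitals; stretches under 30 bases end where the window ends. They lie at chr13:73328433-73328460 (Ndufs6, minus strand), chr13:114388045-114388070 (Ndufs4, minus), chr10:80249462-80249491 (Ndufs7, plus), chr6:126849097-126849126 (Ndufa9, minus), chr3:51408915-51408944 (Ndufc1, minus), chr7:3617384-3617413 (Ndufa3, plus) and chr19:44555393-44555415 (Ndufb8, minus), all in GRCm38.p6.
Ndufs6: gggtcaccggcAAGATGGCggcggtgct
Ndufs4: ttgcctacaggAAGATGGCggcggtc
Ndufs7: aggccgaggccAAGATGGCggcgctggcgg
Ndufa9: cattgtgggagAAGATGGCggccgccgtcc
Ndufc1: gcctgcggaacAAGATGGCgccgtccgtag
Ndufa3: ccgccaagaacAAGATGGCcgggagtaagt
Ndufb8: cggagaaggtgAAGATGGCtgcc
Of these 7 genes, Ndufs7, Ndufa9, Ndufc1 and Ndufb8 were called higher in DKO, while Ndufs6, Ndufs4 and Ndufa3 were not called.

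The libraries held 3736881 to 76838584 reads, and each member had at least 52 reads in every library. Totals were 4081597 to 15410736 reads in WT and 3736881 to 76838584 in DKO. The libraries also differed in content. Depth and ribosomal RNA partly followed the groups, and to that extent they cannot be told apart from the genotype. In WT replicates 1, 3 and 4, as in DKO replicate 1, over 1% of reads came from ribosomal RNA genes, a class called here more ribosomal RNA, and less in the other 4 libraries. Epididymis markers took over 1% of reads in WT replicate 2 and DKO replicates 2 and 4. None of the 18 tested epididymis markers was called between the groups by limma or by voom (0 each), nor did any have an unadjusted p under 0.05 (0 genes). Their median change was 2.38, and 14 of the list's genes were at 0 reads in at least 1 library. Their median log2 CPM was -1.44, 8.88, 0.75 and -1.23 in WT replicates 1 to 4 and -2.90, 9.69, -0.08 and 8.62 in DKO. With such a spread within each group these tests could hardly make a call, so the lack of calls does not show equal content. Adipocyte markers defined the tissue in both groups, but their summed level was 15688 to 23953 CPM in WT and 28779 to 49564 CPM in DKO. Macrophage markers summed to 9113 to 11066 CPM in WT and 1487 to 2323 CPM in DKO. In bulk tissue fewer cells of a type and less RNA per cell cannot be told apart. The labels do not say whether the animals came from separate litters, so the p-values speak only for the spread among these 8 libraries. All values within a library also share its total.

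Complex I transcripts were higher in DKO fat. Of the 37 members, 20 were called higher and 0 lower (limma, Benjamini-Hochberg adjusted p under 0.05 over all 13797 tested genes), against 22.7% of all tested genes called higher and 16.1% called lower. At an unadjusted p under 0.05 the members counted 29 higher and 0 lower, and with voom on the recovered reads 18 higher and 0 lower. The median change was 0.58 on the log2 scale, from 0.17 for Ndufs8 to 1.12 for Ndufs3, where the median of all tested genes was 0.18. Without Ndufa4, a complex IV subunit by its later assignment, 19 of 36 members were called higher, with a median change of 0.59. Every member had a higher mean in DKO than in WT (37 of 37), as had 62.0% of tested genes. The groups did not overlap, with all 4 DKO values above all 4 WT values, in 15 members, against 20.8% of tested genes.

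Summed over the members, which include Ndufa4 of complex IV, their transcripts made up 0.194%, 0.250%, 0.222% and 0.211% of reads in WT replicates 1 to 4. In DKO replicates 1 to 4 they made up 0.261%, 0.276%, 0.419% and 0.414%. The groups did not overlap, but WT replicate 2 lay close under DKO replicate 1, and DKO replicates 3 and 4 stood well above the other 6 libraries. The mean share was 0.219% ± 0.0237 (SD, n = 4) in WT and 0.343% ± 0.0856 (SD, n = 4) in DKO, a ratio of 1.56. Without Ndufa4 the members summed to 1821 to 2344 CPM in WT and 2415 to 3973 CPM in DKO. Wilson 95% intervals lay within 0.00522 percentage points of each share and cover counting error only.

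**Figure D1:**
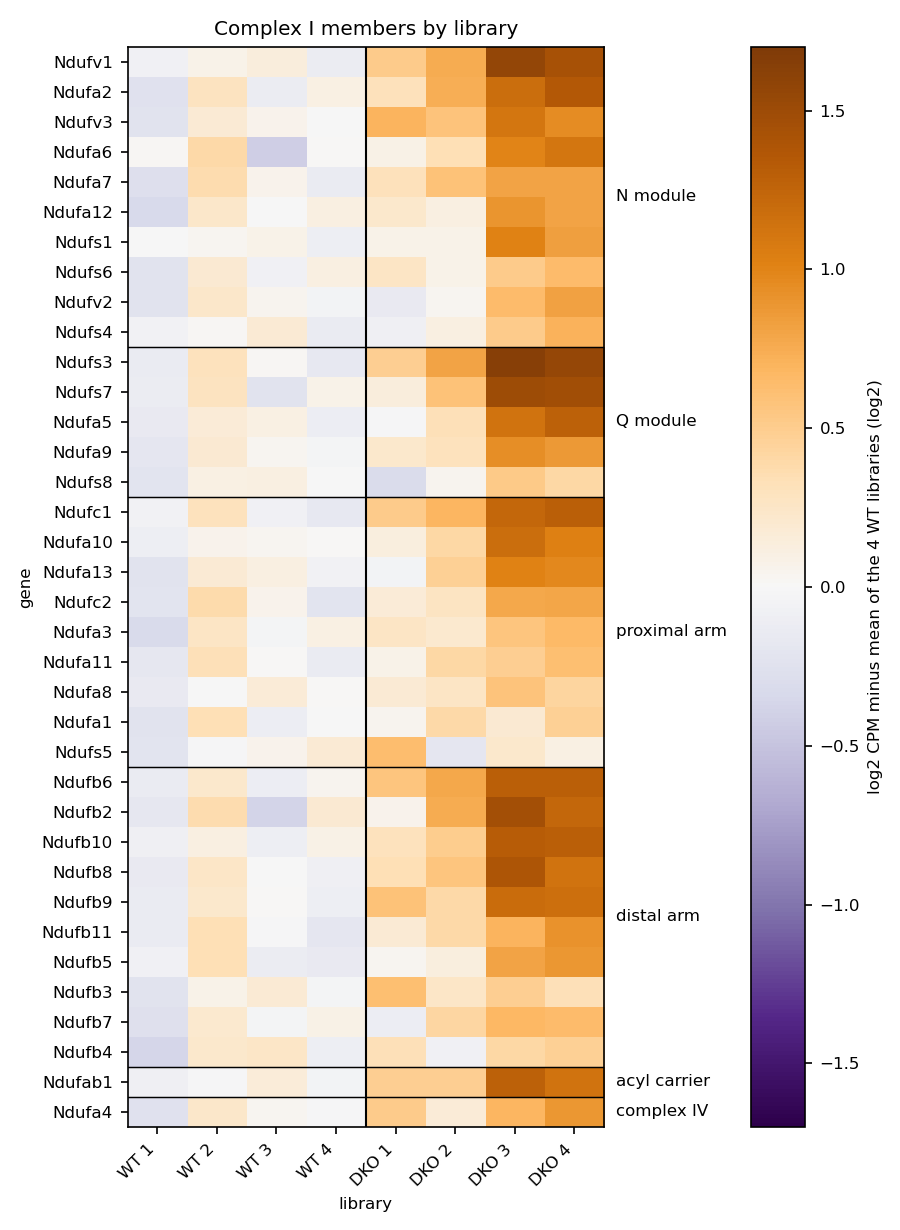
Log2 CPM of 36 of the members (rows, grouped by module) in each library (columns), as the difference from the gene's mean over the 4 WT libraries (color scale, log2, orange above and purple below it). DKO replicates 3 and 4 are the darkest columns, above the other 6 libraries in 34 of 37 members.

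The members moved across libraries largely as a block. DKO replicates 3 and 4 both exceeded the other 6 libraries in 34 of 37 members (91.9%), against 24.6% of tested genes. DKO replicate 1 was the lowest DKO library in 27 members (73.0%), against 45.1% of tested genes. DKO replicate 2 was lowest in the other 10 (27.0%), near the 20.6% of tested genes. WT replicate 2 was the highest WT library in 28 members (75.7%), against 41.1% of tested genes. The SD was larger in DKO than in WT in 32 members (86.5%), against 68.3% of tested genes. Over genes, the median difference of a member from its WT mean was 0.22 in DKO replicate 1, 0.39 in replicate 2, 0.94 in replicate 3 and 0.89 in replicate 4. DKO replicates 2, 3 and 4 belong to the class with less ribosomal RNA. Within that class (WT replicate 2 against 3 DKO libraries) the median change was 0.43 with 37 of 37 members above 0, and within the class with more (3 WT libraries against DKO replicate 1) it was 0.29 with 33 of 37 above 0. Over all tested genes these medians were 0.08 and 0.04, with 55.5% and 52.8% of the genes above 0. The exceptions in the class with more ribosomal RNA were Ndufv2, Ndufs4, Ndufs8 and Ndufb7. Each class has a single library of 1 group, so these differences have no error of their own.

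**Figure D2:**
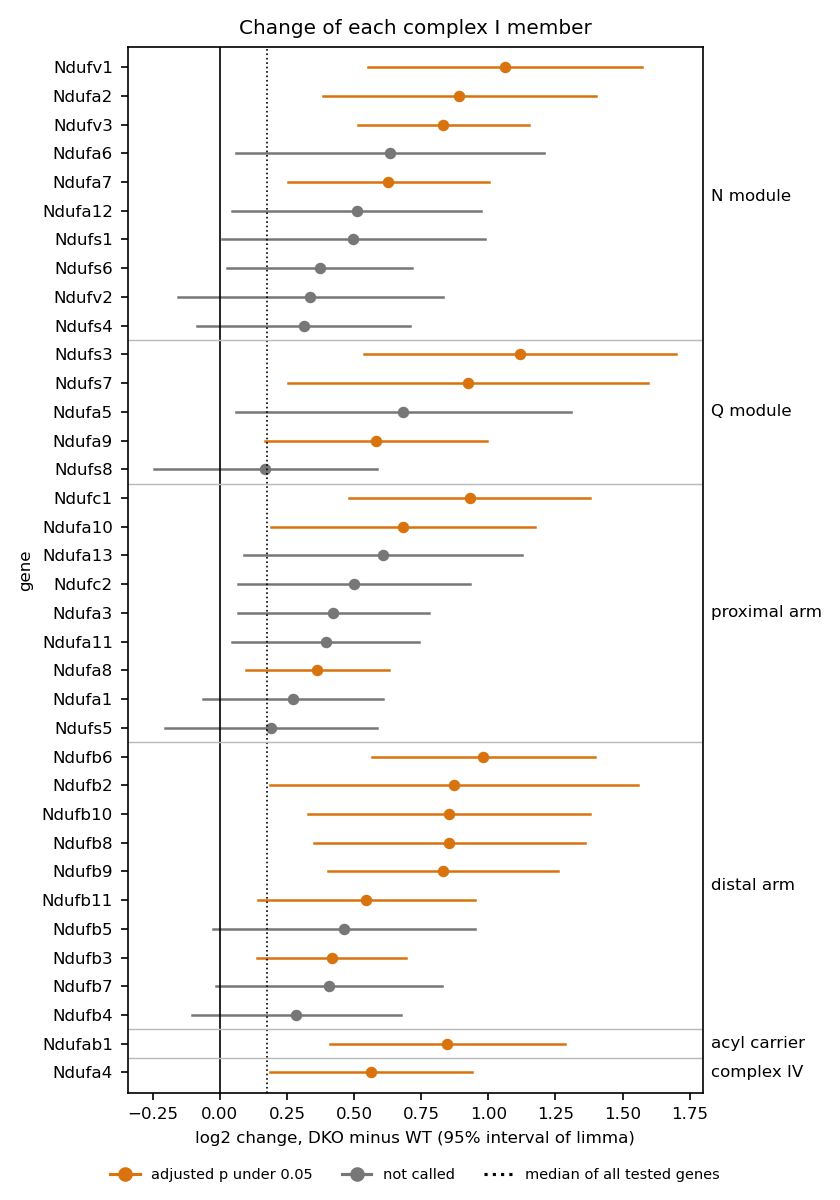
Change of 36 of the members (DKO minus WT, log2 CPM, x axis) with the 95% interval from limma (lines), orange where called and grey where not, grouped by module. All 36 points lie right of 0, and 19 are orange, from Ndufa8 at 0.36 to Ndufs3 at 1.12, while the dotted line marks the median of all tested genes at 0.18.

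In the N module, which binds and oxidizes NADH, 4 of 10 genes were called higher, against 22.7% of all tested genes, and the median change was 0.57. Ndufv1, the subunit that holds the flavin and binds NADH, stood at 5.92, 6.06, 6.13 and 5.87 log2 CPM in WT replicates 1 to 4 and at 6.50, 6.74, 7.55 and 7.42 in DKO. Every DKO library was above every WT library, and DKO replicates 3 and 4 were highest. Ndufv1 rose by 1.06 ± 0.23 (SE; adjusted p = 0.00598 in limma), 2.09-fold. Its partner Ndufv2, an iron-sulfur subunit next to the flavin, stood at 6.36, 6.82, 6.64 and 6.55 in WT and 6.44, 6.62, 7.24 and 7.41 in DKO. Only DKO replicates 3 and 4 exceeded the WT values there, and the change of 0.34 ± 0.22 was not called (adjusted p = 0.247). Ndufs1, which carries several iron-sulfur clusters, stood at 6.66, 6.71, 6.75 and 6.58 in WT and 6.74, 6.75, 7.69 and 7.50 in DKO. DKO replicates 1 and 2 lay among the WT values of Ndufs1, and its change of 0.50 ± 0.22 was not called (adjusted p = 0.0983).

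Among the accessory subunits of the N module, Ndufa2 stood at 4.94, 5.48, 5.06 and 5.29 in WT and 5.50, 5.94, 6.36 and 6.53 in DKO. The lowest DKO value of Ndufa2 was just above the highest WT value, and the gene rose by 0.89 ± 0.22 (limma adjusted p = 0.0129). Ndufv3 rose by 0.83 ± 0.14 and had the smallest adjusted p of the members (0.00187 in limma), with 6.02 ± 0.17 in WT and 6.85 ± 0.24 in DKO (SD, n = 4). Ndufa7 rose by 0.63 ± 0.17 although DKO replicate 1 (6.20) lay under WT replicate 2 (6.25). Ndufs4, whose loss in mice and people impairs the attachment of the N module, stood at 5.53, 5.62, 5.77 and 5.45 in WT and 5.50, 5.71, 6.11 and 6.30 in DKO. Its groups overlapped, and the change of 0.31 ± 0.18 was not called (adjusted p = 0.185). The other N module genes were not called: Ndufa6, a LYR-motif protein that binds the acyl carrier, with 0.63, Ndufa12, a relative of the assembly factor Ndufaf2, with 0.51, and the zinc-binding subunit Ndufs6 with 0.37.

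In the Q module, which reduces ubiquinone, 4 of 6 genes were called higher, against 22.7% of all tested genes, with a median change of 0.65. Ndufs3, a core subunit of this module, stood at 5.48, 5.93, 5.64 and 5.45 in WT and 6.11, 6.43, 7.27 and 7.18 in DKO. The groups did not overlap, and its rise of 1.12 ± 0.26 (limma adjusted p = 0.00849), 2.17-fold, was the largest of the members. Ndufs7, which carries the last iron-sulfur cluster before ubiquinone, stood at 4.87, 5.27, 4.76 and 5.07 in WT and 5.14, 5.59, 6.48 and 6.46 in DKO. DKO replicate 1 lay under WT replicate 2 for Ndufs7, which rose by 0.92 ± 0.30 (adjusted p = 0.0358).

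Ndufa9, an accessory subunit that binds NADPH beside the ubiquinone site, stood at 5.89, 6.28, 6.11 and 6.04 in WT and 6.30, 6.38, 7.02 and 6.96 in DKO. It rose by 0.58 ± 0.18 (limma adjusted p = 0.0327) without overlap, though DKO replicate 1 and WT replicate 2 were close. Ndufa5, an accessory subunit, differed by 0.68 and was not called (adjusted p = 0.0779). Ndufs8, a core subunit with iron-sulfur clusters, stood apart from its module, at 5.59, 5.91, 5.93 and 5.81 in WT and 5.49, 5.86, 6.34 and 6.22 in DKO. DKO replicate 1 was the lowest of all 8 libraries for Ndufs8, and its change of 0.17 ± 0.18 was the smallest of the members (adjusted p = 0.489, 95% interval -0.25 to 0.59). In gene order on their chromosome, Ndufs8 and Ndufv1 are the closest pair of members, with 8 protein-coding genes between them (RefSeq, GRCm38.p6). The core subunits spanned the whole range of the set, from Ndufs8 to Ndufs3, and 4 of the 7 were called, with a median of 0.62, against 15 of 29 accessory subunits, with a median of 0.58.

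In the proximal part of the membrane arm 3 of 9 genes were called higher, against 22.7% of all tested genes, with a median change of 0.42. Ndufc1, a small membrane subunit, stood at 4.71, 5.07, 4.69 and 4.60 in WT and 5.27, 5.45, 6.00 and 6.07 in DKO. The groups were separate, and Ndufc1 rose by 0.93 ± 0.20 (limma adjusted p = 0.00605). Ndufa10, a nucleoside kinase-like subunit, stood at 5.92, 6.08, 6.05 and 6.03 in WT and 6.14, 6.42, 7.19 and 7.05 in DKO. Its WT values were close together, and it rose by 0.68 ± 0.22 (adjusted p = 0.035). Ndufa8, a subunit on the side of the intermembrane space, rose by 0.36 ± 0.12 without overlap, from 5.99 ± 0.13 to 6.35 ± 0.18 (SD, n = 4).

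The smallest changes of the proximal part were those of Ndufs5 and Ndufa1. Ndufs5, which like Ndufa8 faces the intermembrane space, stood at 5.06, 5.27, 5.35 and 5.47 in WT and 5.92, 5.10, 5.51 and 5.39 in DKO. DKO replicate 1 was its highest library, as it was for Ndufb3, DKO replicates 2 and 4 lay among the WT values, and the change of 0.19 ± 0.18 was not called (limma adjusted p = 0.409). Ndufa1, a single-helix subunit encoded on the X chromosome, stood at 5.61, 6.18, 5.72 and 5.84 in WT and 5.88, 6.23, 6.02 and 6.30 in DKO. WT replicate 2 reached into its DKO range, and the change of 0.27 ± 0.15 was not called (adjusted p = 0.171). The remaining genes of this part were not called either: Ndufa13, also known as GRIM-19, with 0.61, Ndufc2 with 0.50, Ndufa3 with 0.42 and Ndufa11 with 0.39.

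The distal part of the membrane arm had the most calls, 7 of 10 genes against 22.7% of all tested genes, with a median change of 0.69. That order depended on the threshold. At an unadjusted p under 0.05 in limma the counts were 8 of 10 in the N module and 5 of 6 in the Q module. They were 7 of 9 in the proximal part and 7 of 10 in the distal part. Ndufb6 stood at 4.86, 5.22, 4.89 and 5.04 in WT and 5.56, 5.78, 6.30 and 6.30 in DKO. No DKO value of this accessory subunit fell within the WT range, and Ndufb6 rose by 0.98 ± 0.18 (limma adjusted p = 0.00309). Ndufb2, the member with the lowest level in log2 CPM, stood at 3.69, 4.23, 3.47 and 4.05 in WT and 3.92, 4.61, 5.31 and 5.09 in DKO. DKO replicate 1 lay among the WT values of Ndufb2, which rose by 0.87 ± 0.30 with an adjusted p of 0.0473 in limma, near the threshold. Ndufb10 and Ndufb8 rose by 0.85 ± 0.23 and 0.85 ± 0.22, and Ndufb9, a LYR-motif protein that binds the acyl carrier, by 0.83 ± 0.19, all without overlap. Ndufb11, encoded on the X chromosome, rose by 0.55 ± 0.18 with overlap and Ndufb3 by 0.42 ± 0.12 without.

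Of the 3 distal genes not called, Ndufb4 stood at 5.72, 6.31, 6.34 and 5.98 in WT and 6.42, 6.02, 6.50 and 6.56 in DKO. DKO replicate 2 lay within the WT range of Ndufb4, whose change was 0.29 ± 0.17 (limma adjusted p = 0.214). Ndufb7, an intermembrane space subunit, stood at 5.29, 5.76, 5.51 and 5.64 in WT and 5.43, 5.97, 6.22 and 6.19 in DKO. DKO replicate 1 was within the WT range, and the change of 0.41 ± 0.19 had an adjusted p of 0.112 in limma. Ndufb5 stood at 5.74, 6.16, 5.69 and 5.66 in WT and 5.85, 5.94, 6.61 and 6.70 in DKO, with WT replicate 2 above DKO replicates 1 and 2. Its change was 0.46 ± 0.22 (adjusted p = 0.118). Ndufb1, another distal subunit, was not analysed here.

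Outside the modules, Ndufab1, the mitochondrial acyl carrier protein that sits in both arms and also serves fatty acid synthesis in mitochondria, stood at 5.18, 5.24, 5.42 and 5.21 in WT and 5.75, 5.75, 6.54 and 6.40 in DKO. The groups were separate, and it rose by 0.85 ± 0.19 (limma adjusted p = 0.00823). Ndufa4, named for complex I but found as a subunit of complex IV, stood at 6.84, 7.31, 7.11 and 7.06 in WT and 7.59, 7.24, 7.77 and 7.97 in DKO. DKO replicate 2 was under WT replicate 2, and Ndufa4 rose by 0.56 ± 0.17 (adjusted p = 0.0254). Its paralog Ndufa4l2, the row left out by the rule, had a mean of 2.78 ± 0.19 in WT and 2.99 ± 0.17 in DKO (SD, n = 4), and the change of 0.21 ± 0.18 was not called (adjusted p = 0.374).

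Levels per transcript length, in CPM per kilobase of the principal GENCODE transcript, could be ranked for 34 members; Ndufc1, Ndufb2 and Ndufab1 were left out because their annotated principal transcripts differ over 1.5-fold in length. Ndufa4 was highest, at 223 ± 30.1 in WT and 333 ± 68.6 in DKO (SD, n = 4). Ndufs4 was lowest in WT, at 28.5 ± 2.76, and stood at 36.1 ± 8.99 in DKO. The median of the 34 genes was 69.5 in WT and 96.9 in DKO. In WT Ndufa1 (138 ± 24.8) and Ndufb9 (121 ± 13.8) came after Ndufa4, and these neighbours differed by less than the SD of Ndufa1. Of the 7 nuclear core subunits, Ndufs7 (32.7 ± 5.22), Ndufs1 (38.5 ± 1.96), Ndufv1 (38.5 ± 3.31), Ndufs3 (47.6 ± 7.44), Ndufs8 (56.0 ± 5.86) and Ndufv2 (57.3 ± 7.65) lay under the median in WT, but not all 7 did. Over 20% of the 75-base stretches of Ndufb4, Ndufs3, Ndufs5, Ndufa12 and Ndufb9 also occur in another annotated gene, so reads of these 5 genes could be lost or shared in the counting, and their levels are uncertain.

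The other respiratory complexes also had called genes in 1 direction only. Of 40 nuclear genes of complexes II to V, 19 were called higher and 0 lower (limma; with unadjusted p under 0.05, 25 and 0; by voom, 18 and 0), with a median change of 0.58. By complex the called genes were 1 of 4 in complex II, 5 of 9 in complex III, 5 of 12 in complex IV and 8 of 15 in complex V, the ATP synthase. Over all tested genes limma called 22.7% higher and 16.1% lower. Sdha, the flavin subunit of complex II, rose by 0.90 ± 0.21, while Sdhc and Sdhd differed by 0.34 ± 0.14 and 0.41 ± 0.20 without a call. In complex III Uqcr11, Cyc1 (cytochrome c1) and Uqcr10 rose by 1.01 ± 0.19, 0.95 ± 0.25 and 0.69 ± 0.21. In complex IV Cox8a, Cox6a1 and Cox4i1 rose by 1.03 ± 0.23, 0.74 ± 0.18 and 0.79 ± 0.24, and in complex V Atp5k, Atp5b and Atp5e by 0.86 ± 0.18, 0.89 ± 0.22 and 0.88 ± 0.23.

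The complex I subunits encoded in the mitochondrial genome did not show such calls. Of the 5 such genes measured, 0 were called higher or lower by limma, 2 had an unadjusted p under 0.05 and 2 were called higher with voom. Their median change was 0.03, but it differed by ribosomal RNA class. It was 0.44 within the class with more ribosomal RNA and -0.08 within the class with less. The nuclear members had 0.29 and 0.43 there. As above, differences within a class have no error of their own. ND1 and ND2, which form part of the proximal membrane arm, differed by 0.03 ± 0.24 and -0.08 ± 0.28. ND4 and ND5, the proton-pumping subunits of the distal arm, did not overlap between the groups. ND4 stood at 11.28, 11.43, 11.36 and 11.35 in WT and 11.76, 11.62, 12.34 and 12.29 in DKO, a difference of 0.65 ± 0.24 (adjusted p = 0.0569 in limma). ND5 differed by 0.62 ± 0.23 (adjusted p = 0.0615) and ND6 by -0.49 ± 0.41. Together these 5 genes summed to 13587 to 17805 CPM in WT and 15324 to 19664 CPM in DKO, so the groups overlapped. Whether nuclear and mitochondrial genes differ in their change was not tested.

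**Figure D3:**
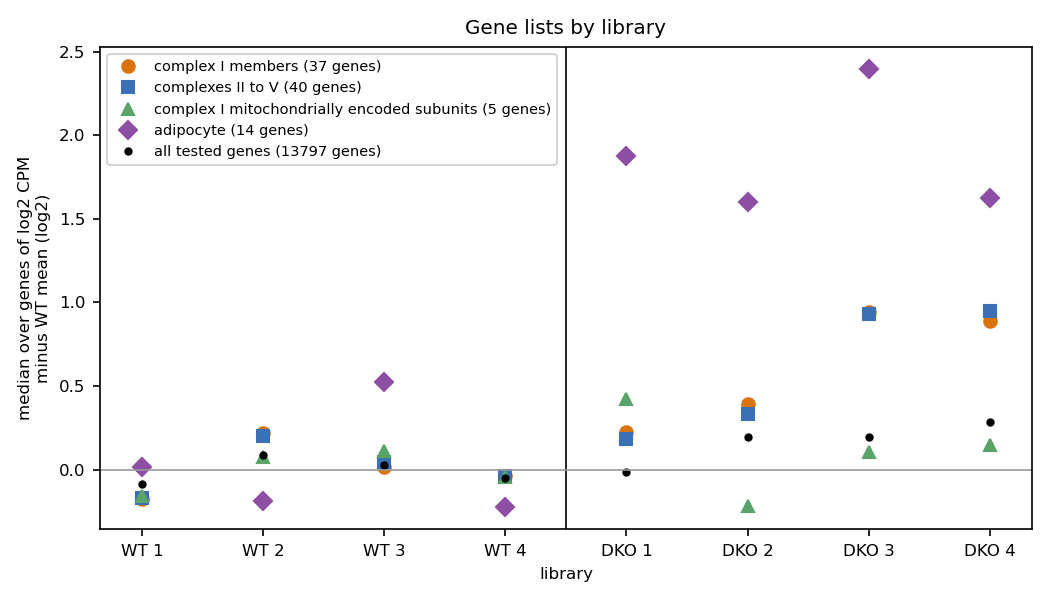
For each library (x axis), the median over the genes of a list of the log2 CPM minus the gene's mean over the 4 WT libraries (y axis, log2). Complex I members and complexes II to V lie almost on each other in every library (0.94 and 0.93 in DKO replicate 3), adipocyte markers lie between 1.60 and 2.40 in all DKO libraries, and the mitochondrially encoded subunits stay between -0.22 and 0.42.

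Genes that build or feed the complex were also examined, beside 22.7% of all tested genes called higher and 16.1% called lower by limma. Of 16 complex I assembly factors 8 were called higher and 0 lower (limma; 8 and 0 also at an unadjusted p under 0.05), with a median of 0.51; Tmem186 and Ecsit, which take part in building the membrane arm, rose by 0.85 ± 0.14 and 1.15 ± 0.24, and the assembly factor Foxred1 rose by 0.71 ± 0.13. All 8 genes of enzymes that pass electrons to ubiquinone without complex I were called higher, with a median of 1.06, and those with the smallest p were proline dehydrogenase (Prodh, 2.72 ± 0.48), choline dehydrogenase (Chdh, 2.13 ± 0.37) and the electron transfer flavoprotein subunit Etfa (0.96 ± 0.17). Of 16 genes of iron-sulfur cluster assembly 6 were called higher, among them the scaffold Iscu (0.66 ± 0.12) and the glutaredoxin Glrx5 (0.84 ± 0.15), and 1 was called lower. Of 15 genes of mitochondrial import and mass 6 were called higher, among them the cristae organizer Immt (0.71 ± 0.17) and prohibitin Phb (0.50 ± 0.13), and 1 lower, the outer membrane channel Vdac2 (-0.64 ± 0.12).

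Among 14 regulators of mitochondrial biogenesis 5 were called higher and 0 lower (limma; with unadjusted p under 0.05, 5 and 2; by voom, 3 and 2), with a median of 0.30. Limma called 22.7% of all tested genes higher and 16.1% lower. The coactivator Ppargc1a rose by 1.99 ± 0.45, and the nuclear receptors Ppara and Pparg by 2.18 ± 0.33 and 1.43 ± 0.19. The mitochondrial transcription factors Tfam and Tfb2m rose by 0.50 ± 0.17 and 0.54 ± 0.17. Ppargc1a was at a low level, 1.18 ± 0.69 in WT and 3.17 ± 0.73 in DKO. The factors whose motifs were searched in the promoters were not called: Nrf1 differed by 0.10 ± 0.13, Gabpa by -0.12 ± 0.12, Gabpb1 by -0.30 ± 0.12, Esrra by 0.13 ± 0.19 and Yy1 by -0.15 ± 0.13. Ppargc1b (0.61 ± 0.38), Polrmt (0.38 ± 0.19), Tfb1m (0.21 ± 0.30) and Pprc1 (-0.30 ± 0.13) were not called either.

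Markers of several cell types moved with the groups, beside 22.7% of all tested genes called higher and 16.1% called lower by limma. Of 14 adipocyte markers 13 were called higher, with a median of 1.87, above the 0.58 of the complex I members. Of 12 macrophage markers 11 were called lower (median -2.45), and all 8 endothelial markers were called higher (median 1.00). Across DKO replicates 1 to 4 the adipocyte markers summed to 40714, 28779, 49564 and 38284 CPM, and the macrophage markers to 2323, 1895, 1488 and 1487 CPM. DKO replicates 3 and 4, the libraries with the highest complex I shares, had the lowest macrophage sums. The adipocyte sum of replicate 4 lay below that of replicate 1, which had the lowest complex I share of the group. The adipocyte markers' median log2 CPM ran the other way, at 10.47 in DKO replicate 1 and 10.58 in replicate 4. Their median difference from the WT mean was 1.87 in replicate 1 and 1.63 in replicate 4, so the order depended on the measure. In DKO replicates 3 and 4, 0.406% and 1.19% of reads came from red blood cell markers, against at most 0.0826% in the other 6 libraries. Of the 5 tested red blood cell markers 2 were called higher (limma), with a median change of 2.51. Of 7 fibroblast markers 3 were called lower, and of 6 mesothelial markers 4 were called higher. Smooth muscle markers summed to 3163 CPM in DKO replicate 4 and to at most 489 CPM elsewhere. Of the brown and beige adipocyte list, Ucp1 and Elovl3 lay under the level limit and were not tested. Ucp1 stood between -1.97 and 0.32 log2 CPM in WT and between -3.76 and -0.42 in DKO, so the groups overlapped. Elovl3 stood between 0.84 and 1.19 in WT and between -4.60 and -0.50 in DKO, without overlap. Of the 5 tested genes of that list Ppargc1a was called higher and Dio2 lower (-2.80). The part of these cell types in the complex I result was not tested.

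**Figure D4:**
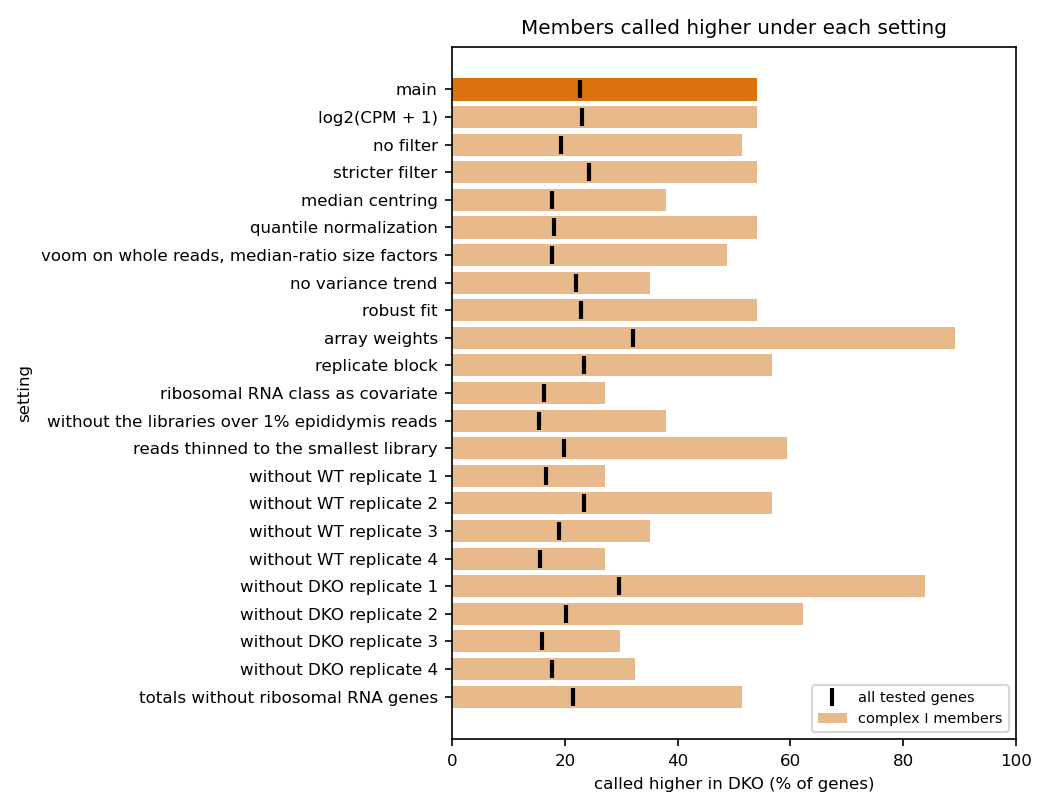
Percent of complex I members called higher in DKO (bars) under the fit reported and each alternative (y axis), with the percent of all tested genes called higher in the same fit (black ticks). The bar exceeds its tick in every setting, and its length ranges from 10 to 33 of 37 members.

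The count of called members depended on the libraries and the error model, while the direction mostly did not. It was 10 without WT replicate 1, 10 without WT replicate 4, 13 without WT replicate 3, 11 without DKO replicate 3, 12 without DKO replicate 4 and 31 without DKO replicate 1. It was 33 with array weights, 13 without a variance trend and 10 when the fit included the ribosomal RNA class. Ndufa2, Ndufab1, Ndufb6, Ndufb9, Ndufc1, Ndufs3, Ndufv1 and Ndufv3 were called in the fit reported and in all 22 alternatives, and Ndufa1, Ndufb4, Ndufs5 and Ndufs8 in none of them. Total scaling sets part of the level of change: centring each library on its median lowered the median of all genes from 0.18 to 0.03 and that of the members from 0.58 to 0.44, with 14 members called. Relative to the median of all genes the members' median was 0.41. Of all genes called between DKO and WT, 58.6% were higher in DKO with total scaling, 46.4% after centring, 48.2% after quantile normalization and 45.4% with voom on median-ratio size factors. Ndufs5 changed sign with the last of these (-0.0059), and Ndufs8 when the fit included the ribosomal RNA class (-0.027).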

How the data were processed

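RNA of epididymal fat from 8 mice was selected for polyA, made into strand-marked libraries and read as single 75-base reads, per the labels' protocols. Per the submitters' processing notes Trimmomatic, TopHat2, featureCounts and limma were used with build mm9; no order or version is given in the sources used here. Values were deposited by the authors as log2 CPM per gene. Every deposited value was a whole read count within 0.01 read once 0.5 read added to each count and 1 added to each library total were undone, which gave totals of 3736881 to 76838584 reads.

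Genes with a mean log2 CPM of at least 0 were kept (13797 of 16505). DKO was compared with WT by limma 3.58.1 (R 4.3.3) with a variance trend, over 4 against 4 libraries, with Benjamini-Hochberg adjustment over all tested genes and a threshold of 0.05. Scripts were tested on simulated data. Python 3.11.15, pandas 2.3.3 and matplotlib 3.10.9 served for sequences and figures. RefSeq sequences are from GRCm38.p6, and no coordinate was converted between builds.

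The members, gene lists and tests were chosen with earlier results of these data known. Values in all 8 libraries are given for the 7 nuclear core subunits, the 2 largest and 2 smallest changes of each module, Ndufab1, Ndufa4 and up to 8 uncalled members with the largest p. Up to 3 genes with the smallest p are named from each other pathway list, and every biogenesis regulator. The own values of 1 member and 1 gene of another list are not reported here; both are in the counts and medians. The alternatives were other scalings, filters and error models, voom on the recovered reads, a replicate block, a ribosomal RNA covariate, thinning, and leaving out each library or those with epididymis reads.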

Additional observations from a re-analysis of the deposited data

Results flagged for a closer look

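Ndufb5 in the WT group had 1 library far from the other 3. WT replicate 2 stood at 6.16 log2 CPM, the next WT library at 5.74 and the lowest at 5.66, so the gap made up 0.852 of the group's range, above Dixon's 95% critical value for 4 samples. In all, 76 groups of 4 were examined and 1 was marked, where chance marks about 1 in 20.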

How the results depend on the processing

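No member was called lower under any of the 22 alternatives with a test, and 35 members kept a positive change in all of them. The exceptions were Ndufs5, at -0.0059 with voom on median-ratio size factors, and Ndufs8, at -0.027 with the ribosomal RNA covariate. The count of members called higher, 20 as reported, was 33 with array weights, 13 without a variance trend and 10 with the ribosomal RNA covariate. Leaving out 1 library gave 10 (without WT replicate 1 or 4) to 31 (without DKO replicate 1). In each of these fits the members' share called higher exceeded that of all tested genes. The members' median change ranged from 0.39 with the ribosomal RNA covariate to 0.74 with array weights, and was 0.29 within the class with more ribosomal RNA. Taking ribosomal RNA genes out of the totals, an alternative chosen after seeing the data, gave 19 called members. Fitting the replicate number as a block gave 21. Deviations of the same-numbered libraries correlated at 0.36, 0.79, 0.24 and -0.36 for replicates 1 to 4, and not every library correlated best with its own number. These values do not settle whether the numbers mark pairs, and they were not taken as pairs. The causes of these changes were not tested. Depth was lowest in DKO replicate 1, and thinning all libraries to that size gave 22 called members.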
